A study of Mus musculus with 2 samples.

Results

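The 10 genes described here encode the calcium-dependent phosphatase calcineurin, the NFAT transcription factors it acts on and the Rcan proteins that bind it. They were taken from 55536 annotated genes by symbol, not by a cutoff on their values, though earlier results of these data were known. The 10 are the catalytic subunit genes Ppp3ca and Ppp3cb, the regulatory subunit gene Ppp3r1, the NFAT genes Nfatc1, Nfatc2, Nfatc3 and Nfatc4, and the inhibitor genes Rcan1, Rcan2 and Rcan3. All 10 were found in the gene and transcript tables. Levels come from total RNA sequencing of the gastrocnemius, a calf muscle, of 2 male mice aged 4 days, which the labels list as biological replicates 1 and 2 of a single group. The strain was the first-generation hybrid B6CASTF1/J, with no treatment or engineered allele named in the labels, and each library was prepared from 300 ng of RNA plus ERCC spike-ins. There is no second condition, so the comparisons are between genes and transcripts within each library, and between the libraries of replicates 1 and 2. No p is given across animals, because with 2 values the smallest p an exact two-sided sign-flip test can give is 0.5. A pair of values without names is that of replicate 1 and then replicate 2.

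Calcineurin is a heterodimer of a catalytic subunit, which binds calcium-loaded calmodulin, and a small regulatory subunit, which binds calcium itself. When activated it removes phosphates from NFAT proteins, which then enter the nucleus and act with partners such as the Mef2 factors, while Rcan proteins bind the catalytic subunit and inhibit it. In skeletal muscle the pathway is known for its part in the slow fibre programme and in the fusion and growth of myoblasts.

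The libraries held 35281187 expected counts in annotated genes in replicate 1 and 32301531 in replicate 2. The summed level of 5 skeletal muscle markers (Acta1, Ckm, Myh8, Ryr1, Des) reached 24604 TPM (a unit normalised for transcript length and depth) in replicate 1 and, in replicate 2, 22833 TPM. Markers of other cells were also present, among them 5 endothelial markers (summed level 164.8 and 165.3 TPM in replicates 1 and 2), 4 fibroblast markers (2655 and 2702 TPM) and 4 leukocyte markers (37.6 and 42.9 TPM). The 6 lymphocyte markers summed to 1.60 and 2.39 TPM, the 4 neuronal markers to 0.310 and 0.480 TPM, and the 5 osteoclast and bone markers to 22.4 and 25.1 TPM. Of the bone list, 2 of 5 reached 1 TPM in both libraries, with Ctsk at 21.4 and 23.6 TPM and Acp5 at 1.03 and 1.46 TPM, while Dcstamp and Bglap were at 0. The libraries differed most in 5 epidermal and hair follicle keratins, which summed to 3.91 TPM in replicate 1 but to 694.4 TPM in replicate 2, and in 4 Schwann cell markers, at 238.8 and 527.9 TPM. Which cells of the muscle hold the RNA of the 10 genes was not tested, and in whole tissue fewer cells of a type cannot be told apart from less RNA per cell.

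Rcan1 is shown by sequence first, because its transcripts begin at alternative first exons that give the protein different amino ends. The gene lies on the minus strand (mm10, chr16:92391953-92470867). The distal first exon (chr16:92465833-92466146) and the proximal one (chr16:92399896-92400077) start 66069 bases apart, and in Rcan1-202 and Rcan1-201 they join the same later exons. The proximal start is known as a target of NFAT itself, through which calcineurin activity raises its own inhibitor. The coding parts of the first exons, from the annotation's transcripts, are printed with the start codon in capitals.
Rcan1 distal first exon, coding part, chr16:92465833-92466078: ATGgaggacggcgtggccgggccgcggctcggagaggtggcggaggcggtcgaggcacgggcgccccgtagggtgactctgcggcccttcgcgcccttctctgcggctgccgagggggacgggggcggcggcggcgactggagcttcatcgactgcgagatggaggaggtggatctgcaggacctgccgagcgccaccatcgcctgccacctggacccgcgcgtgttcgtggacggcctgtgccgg
Rcan1 proximal first exon, coding part, chr16:92399896-92399982: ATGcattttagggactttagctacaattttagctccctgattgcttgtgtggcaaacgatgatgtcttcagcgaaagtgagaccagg
The distal exon contributes 246 coding bases and the proximal exon 87.

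The promoters of both starts (RefSeq, GRCm38.p6, minus strand, 250 bases before to 50 after the RefSeq start) were searched for GGAAA and its reverse complement TTTCC, the core letters that NFAT proteins are known to bind and that factors of other families also use. Matches are in capitals.
Rcan1 proximal promoter, chr16:92400029-92400328: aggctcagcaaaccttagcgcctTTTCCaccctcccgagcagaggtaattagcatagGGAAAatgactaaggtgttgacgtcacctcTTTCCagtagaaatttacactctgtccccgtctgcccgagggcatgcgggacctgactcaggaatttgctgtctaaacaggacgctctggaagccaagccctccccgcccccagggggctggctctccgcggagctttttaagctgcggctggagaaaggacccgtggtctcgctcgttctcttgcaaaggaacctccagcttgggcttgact
Rcan1 distal promoter, chr16:92466120-92466419: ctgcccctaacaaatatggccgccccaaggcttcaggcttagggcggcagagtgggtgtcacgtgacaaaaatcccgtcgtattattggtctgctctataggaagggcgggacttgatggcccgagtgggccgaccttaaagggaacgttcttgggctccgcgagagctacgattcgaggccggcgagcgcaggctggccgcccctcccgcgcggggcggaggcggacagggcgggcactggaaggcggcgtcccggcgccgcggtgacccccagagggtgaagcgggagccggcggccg
The proximal promoter held 3 matches that did not overlap, beginning 227, 193 and 163 bases before the RefSeq start and spanning 69 bases. Of 32851 promoters of the same length, 9.42% held 3 or more. The distal promoter held no match, which says only that these letters are not in that window. Across the members, 13 promoters of 8 genes were searched. Nfatc1 was left out of the search, and no promoter of Ppp3ca was available. Of the 13, 8 held at least 1 match, against 61.3% of all promoters. Ppp3cb's promoter held 4, a number that 2.65% of all promoters reached or passed, Nfatc4's held 3, and those of Nfatc2 held 3 and 1.

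**Figure D1:**
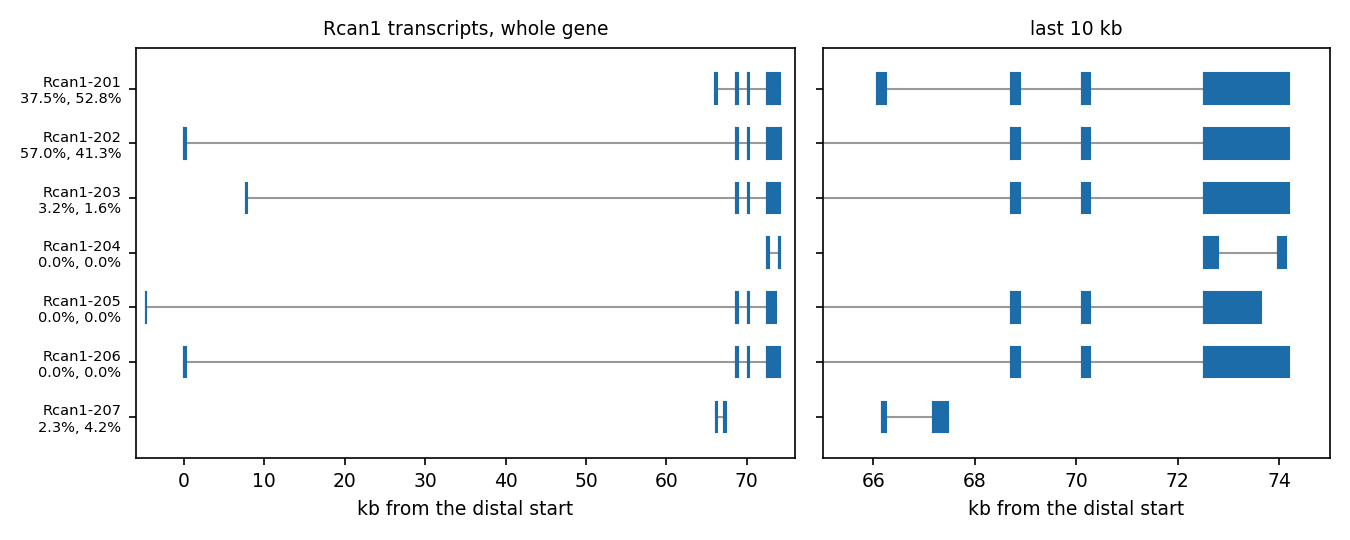
Map of the 7 annotated Rcan1 transcripts, with blocks for exons and grey lines for introns, against distance in kb from the distal start (left, whole gene; right, last 10 kb). Under each name is its share of Rcan1 in replicate 1 and then in replicate 2, and a line at the start of each block keeps narrow exons visible. Rcan1-202 begins at the distal start and Rcan1-201 at the proximal one.

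The map of Rcan1 transcripts shows that Rcan1-202 and Rcan1-201, the main distal and proximal forms, differ at their first exons and by a few bases at the end. Rcan1-207, also in the proximal class, is a short transcript that has none of their later exons. Rcan1-202 and Rcan1-201 share 2008 bases, which is 86.4% of the 2324 bases of Rcan1-202. By the authors' percent of the gene held by each transcript, the distal class (Rcan1-202 and Rcan1-206) made up 57.0% of Rcan1 in replicate 1 and 41.3% in replicate 2, a mean of 49.1% ± 11.1 (SD, n = 2). The proximal class (Rcan1-201 and Rcan1-207) made up 39.8% in replicate 1 and 57.1% in replicate 2, a mean of 48.4% ± 12.2 (SD, n = 2). The distal class was thus the higher of the pair in replicate 1 and the lower in replicate 2, and the ranges overlap. Rcan1-203, Rcan1-204 and Rcan1-205, with other first exons, held 3.20% and 1.63% together, and all of it was Rcan1-203.

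A second quantification, made directly from the reads, gave another split. It put the distal class at 83.6% in replicate 1 and 96.1% in replicate 2, and the proximal class at 13.5% and 0.817%. In that table the distal class was higher in both libraries. The alignment-based table's own interval bounds for transcript TPM, whose level is not stated, show how loosely the distal form is fixed. Rcan1-202 stood at 8.77 TPM with bounds of 2.29 and 9.28 in replicate 1, and at 6.23 TPM with bounds of 1.90 and 6.61 in replicate 2. Rcan1-206, which has the same first exon, was at 0 TPM in both with upper bounds of 5.71 in replicate 1 and 4.06 in replicate 2, so the table does not tell the distal transcripts apart. Rcan1-201 stood at 5.78 TPM (bounds 3.86 and 7.12) in replicate 1 and 7.97 TPM (bounds 5.58 and 9.01) in replicate 2. Of the others, Rcan1-207 was at 0.360 and 0.640 TPM, Rcan1-203 at 0.490 and 0.250 TPM, and Rcan1-204 and Rcan1-205 at 0. The presence of distal starts was common to both tables, while the share of proximal starts depended on the table used.

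Calcineurin subunits were the most abundant of the 10 genes, and their 3 genes stood at nearly the same level. Ppp3ca (chr3:136670124-136937727, plus strand), a catalytic subunit, was at 51.1 TPM (replicate 1) and 47.6 TPM (replicate 2), a mean of 49.3 ± 2.49 TPM (SD, n = 2). Ppp3cb (chr14:20499364-20546573, minus strand), the other catalytic subunit, was at 50.8 and 51.0 TPM, a mean of 50.9 ± 0.141 TPM. Ppp3r1 (chr11:17159263-17200375, plus strand), the regulatory subunit, was at 49.3 and 52.4 TPM, a mean of 50.8 ± 2.16 TPM. The ranges of these 3 overlap, so their order was not separable in this table. Each lay between the 89.1 and 89.6 percentiles of the 12159 nuclear protein-coding genes at 1 TPM or more in both libraries, whose median was 10.8 TPM. In the second quantification the order was Ppp3ca (98.3 ± 6.06 TPM), Ppp3cb (84.3 ± 1.78 TPM) and Ppp3r1 (73.8 ± 3.90 TPM), with no overlap between neighbours.

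The levels of NFAT and Rcan genes were lower. Nfatc3 (chr8:106058840-106130537, plus strand) led the NFAT genes at 16.5 TPM (replicate 1) and 15.9 TPM (replicate 2), a mean of 16.2 ± 0.460 TPM. Nfatc1, known in muscle for its nuclear entry in slow fibres, was at 11.1 and 10.1 TPM, a mean of 10.6 ± 0.70 TPM. Nfatc4 (chr14:55823144-55833943, plus strand) was at 10.6 and 8.74 TPM, a mean of 9.68 ± 1.32 TPM. Nfatc2 (chr2:168476410-168601657, minus strand), known in mice for a part in recruiting cells to growing muscle fibres, was at 10.1 and 8.39 TPM, a mean of 9.23 ± 1.18 TPM. Nfatc3 was above the other NFAT genes in both libraries, and the range of Nfatc4 overlaps those of Nfatc1 and Nfatc2. Nfatc1 was above Nfatc2 in both libraries, narrowly so between its lower value (10.09 TPM) and the higher value of Nfatc2 (10.06 TPM). Nfatc3 shares its locus with Esrp2, an epithelial splicing regulator gene on the opposite strand, which had 1 count in replicate 1 and 115 in replicate 2. Those Esrp2 values are 0.0383% of the Nfatc3 count in replicate 1 and 5.08% in replicate 2, and whether strand was used in counting is not stated.

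Among the inhibitor genes, Rcan1 stood at 15.4 TPM (replicate 1) and 15.1 TPM (replicate 2), a mean of 15.2 ± 0.226 TPM. Rcan2 (chr17:43801351-44039516, plus strand) was at 9.79 and 10.2 TPM, a mean of 9.99 ± 0.283 TPM. Rcan3 (chr4:135412308-135433853, minus strand) was the lowest of all 10 at 7.05 and 7.49 TPM, a mean of 7.27 ± 0.311 TPM. All 3 ranges were apart.

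**Figure D2:**
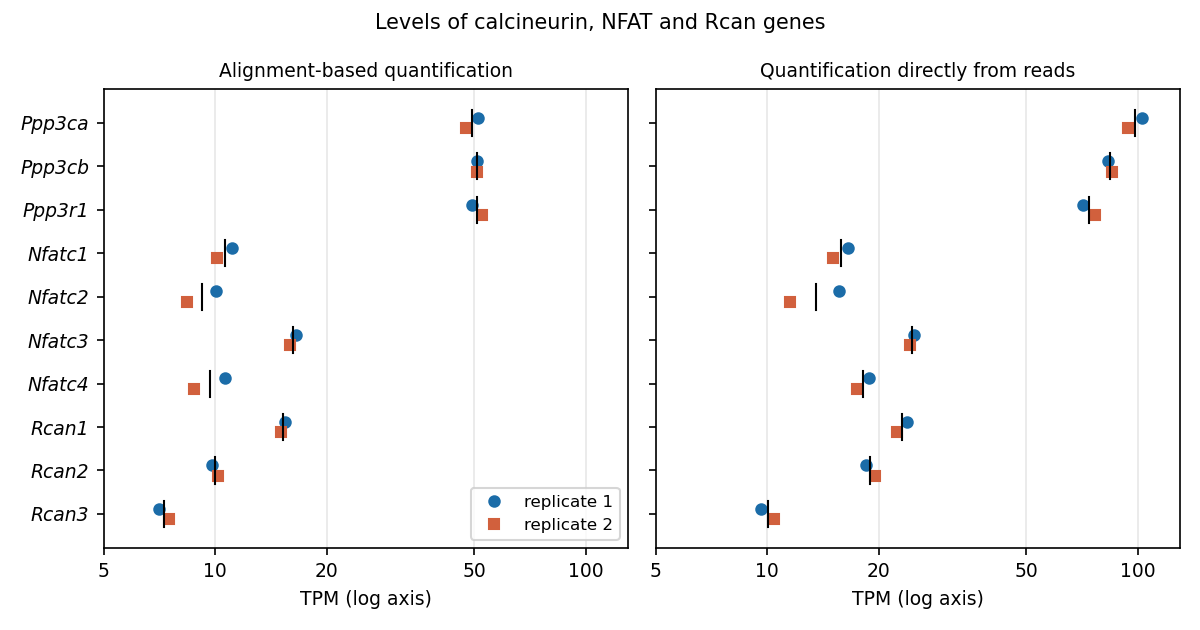
TPM (log axis) of the 10 genes in replicate 1 (circles) and replicate 2 (squares), with the mean as a black line, in the alignment-based table (left) and the quantification made directly from the reads (right). The 3 calcineurin genes lie near 50 TPM on the left, and the NFAT and Rcan genes lie between 7.05 and 16.5 TPM.

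In the plot of levels, a gap of 3.04-fold in mean TPM separates Ppp3ca, the lowest calcineurin gene, from Nfatc3, the highest of the others. Below it the order was Nfatc3, then Rcan1 (Nfatc3 was 1.06-fold higher), then a set of Nfatc1, Rcan2, Nfatc4 and Nfatc2 whose neighbours in the order have overlapping ranges, then Rcan3. The gap was 2.99-fold in the second quantification, there between Ppp3r1 and Nfatc3, and Rcan3 was the lowest there too at 10.1 ± 0.577 TPM. All 10 members were at 1 TPM or more in both libraries, as were 55.2% of 22015 nuclear protein-coding genes. Percentiles among the 12159 such genes were 63.7 for Nfatc3, 61.6 for Rcan1, 49.2 for Nfatc1, 47.3 for Rcan2, 46.2 for Nfatc4, 44.7 for Nfatc2 and 36.4 for Rcan3.

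Summed by role, the catalytic subunits (101.8 TPM in replicate 1 and 98.5 TPM in replicate 2) stood above the regulatory subunit (49.3 and 52.4 TPM) by a log2 ratio of 0.98 ± 0.10 (SD, n = 2), or 1.97-fold. The 3 Rcan genes summed to 32.2 TPM in replicate 1 and 32.8 TPM in replicate 2, a log2 ratio to the catalytic sum of -1.62 ± 0.05. The 4 NFAT genes summed to 48.3 and 43.1 TPM, a log2 ratio to the catalytic sum of -1.14 ± 0.08. Each of these ratios had the same sign in both libraries and was many times its spread between them. They compare RNA per length and say nothing of protein.

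Within the NFAT genes, Nfatc3 held the largest share of the summed TPM, at 34.3% in replicate 1 and 36.9% in replicate 2 (mean 35.6% ± 1.84). Nfatc1 held 22.9% and 23.4%, Nfatc4 22.0% and 20.3%, and Nfatc2 20.8% and 19.5%. The catalytic subunits divided almost evenly, with Ppp3ca at 50.2% and 48.3% and Ppp3cb at 49.9% and 51.7%. Rcan1 held 47.8% and 46.0% of the Rcan sum, Rcan2 30.4% and 31.1%, and Rcan3 21.9% and 22.9%. The second quantification kept Nfatc3 and Rcan1 in the lead, but placed Nfatc4 (25.2% ± 0.474) above Nfatc1 (21.9% ± 0.241) and Ppp3ca (53.8% ± 2.06) above Ppp3cb (46.2% ± 2.06).

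**Figure D3:**
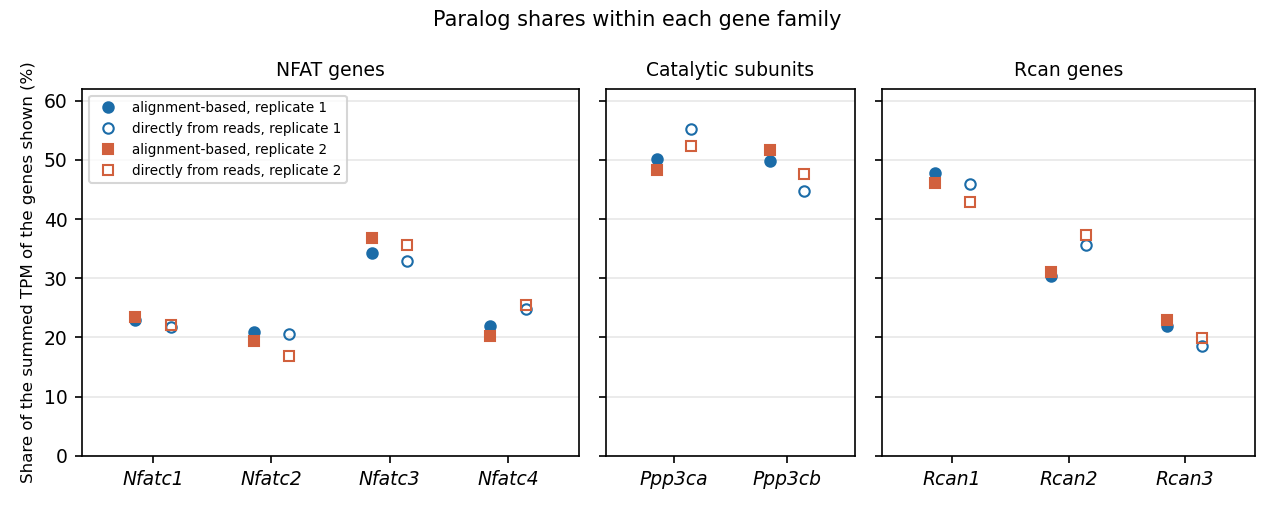
Share of the family's summed TPM (%) held by each NFAT, catalytic and Rcan gene in each library. Filled points are the alignment-based table, open points the quantification made directly from reads, circles replicate 1 and squares replicate 2; Nfatc3 lies at 34.3% and 36.9% and Rcan1 at 47.8% and 46.0% in the alignment-based table.

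The plot of paralog shares shows a leading gene among the NFAT and among the Rcan genes in either table, and none that leads in both tables between Ppp3ca and Ppp3cb.

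Transcripts of Ppp3ca and Ppp3cb differ by a short exon that lies near the end of the coding region in both genes. It is exon 13 of 14 in Ppp3ca-201 and in Ppp3cb-202, and is shown because the paralogs can be compared there base by base. Capitals mark the bases that differ.
Ppp3ca short exon, chr3:136932011-136932040, plus strand: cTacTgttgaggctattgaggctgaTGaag
Ppp3cb short exon, chr14:20503247-20503276, minus strand: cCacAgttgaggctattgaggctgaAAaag
Of the 30 bases, 26 were identical. The classes of Ppp3ca by this exon, and those of Nfatc1 and Rcan2 further on, were chosen after values were seen. Ppp3ca-201, which has the exon, held 46.9% of Ppp3ca in replicate 1 and 44.5% in replicate 2. Ppp3ca-202, which lacks it, held 47.4% and 50.2%. The pair also differs by 2594 bases found only in Ppp3ca-202, so their split does not rest on the short exon alone. The second quantification placed 36.0% ± 0.0950 of Ppp3ca with the exon and 39.3% ± 2.37 without it, and 24.8% ± 2.47 on noncoding transcripts, against 5.52% ± 0.318 in the alignment-based table.

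Coding Ppp3cb transcripts with the short exon (Ppp3cb-202 and Ppp3cb-205) held 57.7% in replicate 1 and 53.3% in replicate 2, and Ppp3cb-201, without it, held 18.6% and 20.4%. The ranges were apart, and the second quantification also put the class with the exon higher, at 46.6% and 43.4% against 24.7% and 24.9%. In Ppp3ca the classes stood close together as shares of TPM. As shares of expected counts, not divided by length, they were 28.9% with the exon and 68.6% without it. In the alignment-based table the class with the exon held 57.7% and 53.3% of Ppp3cb, and 46.9% and 44.5% of Ppp3ca. These are shares of whole coding transcripts, which also differ at other bases, so they do not measure use of the exon itself. The noncoding Ppp3cb-208, outside these classes at 5.73% and 7.43%, also covers the bases of the exon.

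A further coding form, Ppp3cb-206, ends inside the intron after exon 12 and carries another carboxyl end in place of the autoinhibitory region. This kind of variant is known from regenerating muscle. Its coding end is shown because the letters past exon 12 set it apart from all other coding transcripts of the gene: the first 98 bases are exon 12 and the 125 bases in capitals are read from the intron, up to the stop codon.
Ppp3cb-206 coding end, chr14:20508499-20508721, minus strand: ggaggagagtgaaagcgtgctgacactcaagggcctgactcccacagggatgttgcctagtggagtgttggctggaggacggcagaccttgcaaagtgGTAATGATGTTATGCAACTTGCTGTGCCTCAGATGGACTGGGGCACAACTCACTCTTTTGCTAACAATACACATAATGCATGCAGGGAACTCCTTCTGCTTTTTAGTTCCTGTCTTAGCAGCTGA
Ppp3cb-206 held 11.7% of Ppp3cb in replicate 1 and 10.99% in replicate 2, a mean of 11.4% ± 0.509 (SD, n = 2). The second quantification gave 11.4% and 9.98%. Reads from unspliced RNA can also fall in this intron, and their part in the share was not tested. Noncoding Ppp3cb transcripts held 12.03% and 15.3%.

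**Figure D4:**
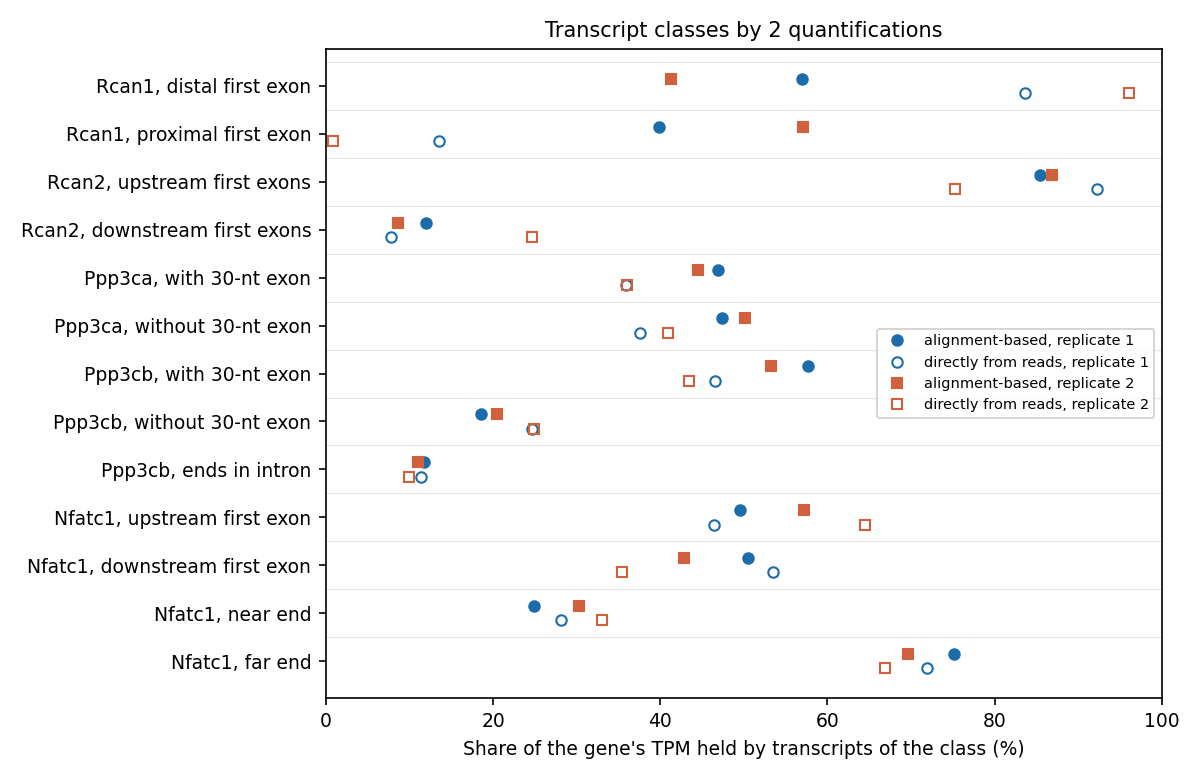
Share of the gene's TPM (%) held by each transcript class of Rcan1, Rcan2, Ppp3ca, Ppp3cb and Nfatc1. Filled points are the alignment-based table, open points the quantification made directly from reads, circles replicate 1 and squares replicate 2; the Rcan1 classes span the widest range, and Ppp3cb ending in the intron lies between 9.98% and 11.7% in all 4 values.

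The plot of transcript classes sets the tables side by side. Nfatc1 has 2 alternative coding first exons and 2 ends, and TPM was assigned to each of them in both libraries. Its upstream first exon held 49.5% in replicate 1 and 57.2% in replicate 2, and the downstream one 50.5% and 42.8%, so the higher class changed between libraries. The far end, which gives the longer proteins, held 75.1% and 69.7%, and the near end 24.9% and 30.3%. The far end was higher in both libraries and in both tables (71.9% and 67.0% in the second quantification). The leading Nfatc1 transcript was Nfatc1-202 at 49.1% ± 0.622. Nfatc1-201 at 23.4% ± 2.20 and Nfatc1-203 at 22.9% ± 2.64 came next, with overlapping ranges. In the second quantification Nfatc1-203 was second, at 27.01% on average, and Nfatc1-201 held 16.3%.

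Rcan2 transcripts with the upstream first exons held 85.4% in replicate 1 and 86.9% in replicate 2, and those with the downstream first exons 12.03% and 8.65%. In the second quantification the upstream group was also higher, at 92.3% and 75.3%. Rcan2-202 led at 50.3% ± 0.276, with Rcan2-206 next at 24.3% ± 3.25. The second quantification put Rcan2-206 at 10.7% on average, behind Rcan2-204 at 34.2%. Rcan3-201 held 48.4% ± 0.0707 of Rcan3 and Rcan3-202 held 31.3% ± 0.990. In the second quantification Rcan3-201 led too, but Rcan3-202 held 11.01% on average, behind Rcan3-203 at 30.1%.

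Ppp3r1 was close to a single form, and Nfatc3 had a clear leading form. Ppp3r1-201 held 98.1% in replicate 1 and 97.4% in replicate 2, with Ppp3r1-202, a noncoding transcript, at 2.26% ± 0.516. Nfatc3-201 held 83.5% and 78.3%, with Nfatc3-202 next at 7.83% ± 1.05. In the second quantification Nfatc3-201 held 73.2% and 68.5%, and Nfatc3-202 held 10.9% and 11.4%. There Nfatc3-206, a coding transcript at 0 in the alignment-based table, held 8.3% and 10.8%. Ppp3cb-205 led Ppp3cb at 45.7% ± 0.375, with Ppp3cb-201 next at 19.5% ± 1.29.

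Nfatc2 and Nfatc4 had no settled leading transcript. In the alignment-based table Nfatc2-202 held 20.2% ± 1.65 and Nfatc2-209 18.1% ± 10.1. There Nfatc2-209 was above Nfatc2-202 in replicate 1 (25.2% and 21.3%) and below it in replicate 2 (10.99% and 19.0%). The second quantification placed Nfatc2-204 first with 21.4% in replicate 1 and 44.0% in replicate 2. Nfatc4-202 held 45.8% in replicate 1 and 31.9% in replicate 2, and Nfatc4-201 held 22.5% and 36.9%, so their order turned between libraries. In the second quantification Nfatc4-201 led in both, at 38.9% and 38.3%. Transcripts annotated as retaining an intron made up 31.7% of Nfatc4 in replicate 1 and 31.2% in replicate 2. The second quantification gave them 41.4% and 43.0%. The part of reads from unspliced RNA in these shares was not tested. By mean share, both tables gave the same leading transcript for the other 8 members. For 7 of them it led in both libraries of both tables, and the exception was Rcan1, where Rcan1-201 led in replicate 2 of the alignment-based table at 52.8% and Rcan1-202 led in the other 3 cases. Of 70 annotated transcripts of the members, 16 had an expected count of 0 in both libraries. The share over all annotated transcripts is not given, so this count does not set the members apart.

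Between the libraries, 0 of 10 members passed 1.5-fold, against 3.99% of the 12421 genes that averaged at least 100 counts. All 10 members passed that count filter. Past 1.2-fold there were 2 of 10, Nfatc2 and Nfatc4, against 19.8% of genes in either direction. Both were lower in replicate 2, as were 9.14% of genes past that fold. With only 10 members, neither the 0 nor the 2 sets them apart from all genes. Ratios are replicate 2 over replicate 1, from expected counts after TMM scaling, with exact Clopper-Pearson 95% intervals that cover counting error only.

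Nfatc4 had 691 counts in replicate 2 and 896 in replicate 1, a log2 ratio of -0.29 (interval -0.44 to -0.15). Nfatc2 had 988 counts in replicate 2 and 1272 in replicate 1, a log2 ratio of -0.28 (-0.40 to -0.16). Nfatc1 had 1236 counts in replicate 2 and 1450 in replicate 1, at -0.15 (-0.26 to -0.04), and Nfatc3 had 2263 in replicate 2 and 2609 in replicate 1, at -0.12 (-0.20 to -0.04). All 4 NFAT genes were thus lower in replicate 2, with intervals below 0, as were the intervals of 23.1% of the 12421 genes. For the calcineurin genes, with counts in replicate 2 and then replicate 1, the ratio was -0.09 for Ppp3ca (4336 and 4897), -0.08 for Ppp3cb (3796 and 4236) and 0.06 for Ppp3r1 (3862 and 3926). The intervals of Ppp3ca (-0.15 to -0.03) and Ppp3cb (-0.14 to -0.01) lie below 0, and that of Ppp3r1 includes 0. In the same order of libraries, the ratio was -0.09 for Rcan1 (851 and 958 counts), -0.06 for Rcan2 (699 and 770) and 0.06 for Rcan3 (552 and 559), with intervals that include 0. Scaled by ERCC counts, Ppp3cb was at 0.00439 and Rcan2 at 0.02, so the direction of those small ratios turned, and the ratios of the 4 NFAT genes remained below 0 under every scaling run. Scaled by total counts or by ERCC counts, however, the intervals of Nfatc1, Nfatc3, Ppp3ca and Ppp3cb include 0 and that of Ppp3r1 lies above 0, as for 26.5% of genes with total and 32.9% with ERCC scaling. The intervals of Nfatc2 and Nfatc4 lie below 0 under TMM, DESeq2, total and ERCC scaling. The shares of all genes with an interval below 0 were 27.6% with DESeq2, 16.4% with total and 12.4% with ERCC scaling. The median log2 ratio was -0.09 over the 10 members and -0.01 over all 12421 genes. Counting intervals do not hold the spread between animals, dissections or library preparations, which 1 library per animal does not give. Markers of keratin-making and Schwann cells also differed between these libraries (summed keratin level 694.4 TPM in replicate 2 and 3.91 TPM in replicate 1), and their part in the ratios was not tested.

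**Figure D5:**
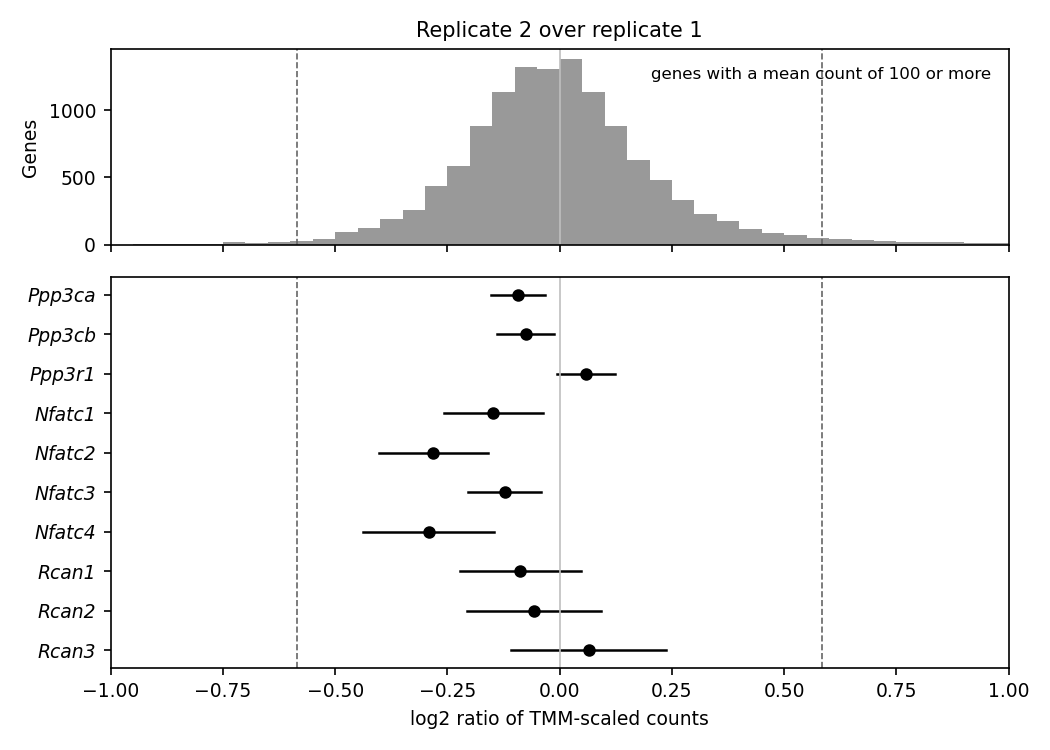
Log2 ratio of TMM-scaled counts, replicate 2 over replicate 1. The axis runs from -1 to 1, and genes outside that range are not drawn. Top, number of genes per bin among the 12421 that averaged at least 100 counts; bottom, the 10 members with 95% counting intervals; dashed lines mark 1.5-fold, and the members lie between -0.29 and 0.06.

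The plot of ratios between libraries places every member inside the 1.5-fold lines. Nfatc2 and Nfatc4 lie furthest to the lower side, past 1.2-fold, as do 9.14% of genes.

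Upstream of the phosphatase, Calm2 and Calm3, which encode the calmodulin that activates it, were expressed. Calm2 was at 156.5 ± 5.16 TPM and Calm3 at 85.8 ± 12.3 TPM (SD, n = 2). Both were above every calcineurin gene in both libraries. All 9 genes of store-operated calcium entry, the route that refills calcium stores, were at 1 TPM or more, with a median of 9.95 TPM. Its calcium sensor Stim1 led at 101.4 ± 6.80 TPM, followed by Stim2 at 31.2 ± 2.15 TPM and the channel gene Orai1 at 19.2 ± 3.91 TPM.

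Of 3 other calcineurin and NFAT genes, 2 reached 1 TPM in both libraries. Nfat5, the family member that calcineurin does not regulate, was at 18.04 ± 2.72 TPM. Ppp3cc, another catalytic gene, was at 2.44 ± 0.106 TPM, far below Ppp3ca and Ppp3cb in both libraries. Ppp3r2, the regulatory subunit gene known from testis, had 2 counts in replicate 1 and 1 in replicate 2, no more than the limit of 3 counts that a count of 0 allows.

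Genes for proteins that bind or anchor calcineurin were at 1 TPM or more for 15 of 16, and their median was 19.8 TPM. Highest of them were Ppia, the cyclophilin through which cyclosporin acts, at 514.4 ± 25.6 TPM, and the Z-disc genes Myoz1 at 508.9 ± 64.3 TPM and Myoz2 at 183.1 ± 2.06 TPM, whose proteins tether calcineurin to the sarcomere. All 11 kinase genes that act on NFAT were at 1 TPM or more, with a median of 35.5 TPM. Csnk1a1 was at 134.8 ± 3.84 TPM, Dyrk1a at 48.8 ± 1.63 TPM and Dyrk1b at 48.2 ± 7.06 TPM. In the transport and scaffold list 6 of 7 reached 1 TPM, led by the importin gene Kpnb1 at 50.4 ± 3.88 TPM, the scaffold gene Iqgap1 at 35.4 ± 2.14 TPM and the export receptor gene Xpo1 at 28.4 ± 1.57 TPM. The noncoding RNA Nron, known to hold NFAT in the cytoplasm, had 1 count in replicate 1 and 0 in replicate 2.

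NFAT partner genes were at 1 TPM or more for 9 of 10, led by Mef2c at 235.2 ± 4.41 TPM, Mef2d at 65.5 ± 7.74 TPM and Mef2a at 46.8 ± 0.856 TPM. Of 12 genes tied to NFAT or calcineurin activity in muscle, 9 reached 1 TPM. The slow myosin gene Myh7 was at 206.3 TPM (replicate 1) and 246.9 TPM (replicate 2), the slow troponin gene Tnni1 at 121.3 and 144.2 TPM, and the fast oxidative myosin gene Myh2 at 105.0 and 90.1 TPM. None of these 3 passed 1.5-fold between the libraries. Il4, a cytokine gene that NFAT drives in forming muscle fibres, had 0 counts in replicate 1 and 2 in replicate 2, and Il13 had 1 and 0, so neither was above the limit of 3 counts. Of the 12, 9 averaged at least 100 counts, and 1 of these 9 passed 1.5-fold, against 3.99% of all 12421 genes. A single gene does not set the list apart. It was Trim63, a muscle ubiquitin ligase gene named after its values were seen. Trim63 stood at 14.7 TPM (replicate 2) and 24.3 TPM (replicate 1), a log2 ratio of -0.75. Ptger4, with 59 counts in replicate 1 and 116 in replicate 2, fell below the count filter at a log2 ratio of 1.05.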

How the data were processed

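Per the file headers, the deposited alignment-based gene and transcript tables hold expected counts, TPM, the percent of its gene held by each transcript, and TPM interval bounds (a score here). A second deposited transcript table, made directly from reads, holds estimated counts and TPM, summed here per gene. Build mm10 and annotation GENCODE M21 come from the notes deposited with each library; the sources used here do not state the aligner, the quantifiers or the use of strand. Effects on mapping of sequence differences between mm10 and the CAST genome were not tested. Depth was 35281187 and 32301531 counts in replicates 1 and 2; 26248 entries named only by a number held 1.13e-05 and 1.85e-05 percent of counts and were left out, as were ERCC controls.

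Ratios used expected counts (rounded for intervals, TMM and DESeq2), TMM from edgeR 4.0.16 in R 4.3.3 and a prior count of 0.5. With a single group no differential test was run and no pairing arises; the ratio step was tested on simulated data. The expected counts of 9 members were whole within 0.005 in both libraries; that of Ppp3r1 was not, as where reads are divided with another entry, so its level is less certain. In a single library, genes overlapping a member held up to 5.1% of its count (Wdr92 with Ppp3r1, replicate 1). Counts carry no molecular identifiers.

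Members, lists, markers and classes were chosen with earlier results of these data known. Named are all members, the 3 highest genes of each list and those under 0.1 TPM in both libraries, the 2 leading transcripts of each member and every Rcan1 transcript. Of these, 1 list gene is not reported here. Alternatives were DESeq2 1.42.0 size factors, total and ERCC scaling, no prior count, other folds and filters, counts without length, TPM over nuclear protein-coding genes, a pseudocount of 0.1, the second quantification and each library alone. The percent from posterior mean TPM was added after seeing the data.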

Additional observations from a re-analysis of the deposited data

How the results depend on the processing

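With 2 libraries, each library alone lies within 1 SD of their mean by construction, so leaving one out says nothing of stability, and the values of replicates 1 and 2 in the report are the whole range. No paired analysis was possible because there is only 1 group. The choice of quantification and of scale moved levels most. In the second quantification mean TPM was 98.3 for Ppp3ca, 84.3 for Ppp3cb, 73.8 for Ppp3r1, 15.8 for Nfatc1, 13.6 for Nfatc2, 24.7 for Nfatc3, 18.2 for Nfatc4, 23.2 for Rcan1, 19.01 for Rcan2 and 10.05 for Rcan3. Rescaled to nuclear protein-coding genes, mean TPM was 118.1 for Ppp3ca, 121.8 for Ppp3cb, 121.8 for Ppp3r1, 25.3 for Nfatc1, 22.1 for Nfatc2, 38.8 for Nfatc3, 23.2 for Nfatc4, 36.5 for Rcan1, 23.9 for Rcan2 and 17.4 for Rcan3.

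Family shares in the second quantification were 21.9% for Nfatc1, 18.7% for Nfatc2, 25.2% for Nfatc4, 53.8% for Ppp3ca, 46.2% for Ppp3cb, 44.4% for Rcan1, 36.4% for Rcan2 and 19.2% for Rcan3. From counts not divided by length they were 23.6% for Nfatc1, 42.8% for Nfatc3, 13.9% for Nfatc4, 53.5% for Ppp3ca, 46.5% for Ppp3cb, 41.2% for Rcan1, 33.5% for Rcan2 and 25.4% for Rcan3. Other shares under these settings moved by less than 1 SD. The log2 ratio of catalytic over regulatory genes was 1.31 in the second quantification and 1.15 from counts, that of Rcan over catalytic genes -1.81 and -1.98, and that of NFAT over catalytic genes -1.34 and -0.60, all with the sign of the main value.

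In the second quantification the Rcan1 distal class averaged 89.9% and the proximal class 7.17%, and Ppp3cb classes averaged 45.0% with the short exon, 24.8% without it and 10.7% ending in the intron. As shares of expected counts the Ppp3cb classes were 65.4%, 20.8% and 9.04%, and the Ppp3ca classes 28.9% with the short exon and 68.6% without it. From posterior mean TPM, Rcan1 transcripts with other first exons held 7.79%. The number of all genes past the fold between libraries was 2458 at 1.2-fold, 2268 with a mean count of 10 or more and 9624 with any count above 0, against 495, and 2 members passed at 1.2-fold against 0. At 5 TPM 1 of the other calcineurin and NFAT genes and 5 store-operated entry genes were counted. Of 50 alternative ratios of single members, 47 stayed within their interval and 3 moved, all under ERCC scaling. Counting intervals lay below 0 for 6 members under TMM and DESeq2 scaling, against 23.1% and 27.6% of all genes. Under total or ERCC scaling they did so for 2 members, against 16.4% and 12.4% of all genes. ERCC scaling shifted ratios by 0.08 on the log2 scale relative to TMM. The cause of these changes was not tested.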
